A study of Mus musculus with 6 samples.

Results

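The enzymes that write, copy and remove DNA methylation were followed in testes of juvenile mice as a set of 10 genes chosen by symbol: Dnmt1, Dnmt3a, Dnmt3b, Dnmt3l, Uhrf1, Uhrf2, Tet1, Tet2, Tet3 and Tdg. All 10 were found among the 55487 gene identifiers of the read-count table, all 10 are autosomal, and all 10 passed the filter on low counts that left 19826 genes to be tested. Polyadenylated RNA came from whole testes at postnatal day 19, an age at which many germ cells of the first spermatogenic wave are in meiotic prophase. There were 2 genotype groups of 3 libraries, each library from a different mouse. One genotype is labelled control, with no further description of its alleles. The other carries the label dsfb and is, by the series title, homozygous for SFB alleles of both Hormad1 and Hormad2, genes of the meiotic chromosome axis. The labels give neither the strain nor what the SFB allele changes.

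DNA methylation is kept through cell division by DNMT1, the maintenance methyltransferase, which UHRF1 brings to newly replicated DNA by binding its hemimethylated sites. UHRF2 is a paralog of UHRF1. The de novo methyltransferases DNMT3A and DNMT3B set new methylation, and DNMT3L, which has no catalytic activity of its own, is their cofactor and is needed for methylation of transposons in prospermatogonia. The dioxygenases TET1, TET2 and TET3 oxidise methylcytosine, and TDG, a DNA glycosylase, excises the oxidised bases so that base excision repair can restore cytosine.

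The promoters of these genes differ widely in CpG content, and 4 windows are printed to show those that hold E2F letters and a CpG-rich beside a CpG-poor one. Windows run from 250 bases before to 50 bases after a transcription start and come from RefSeq for the build GRCm38.p6. All 10 members matched, with 17 windows in all, since Dnmt1, Dnmt3a and Dnmt3l have 3 starts each and Uhrf1 has 2. In the first pair capitals mark matches to the E2F letters TTTGGCGC, TTTCCCGC, TTTGCCGC or TTTCGCGC on either strand. In the second pair capitals mark each CG.
Uhrf1, start 2 of 2, chr17:56304063-56304362, plus strand: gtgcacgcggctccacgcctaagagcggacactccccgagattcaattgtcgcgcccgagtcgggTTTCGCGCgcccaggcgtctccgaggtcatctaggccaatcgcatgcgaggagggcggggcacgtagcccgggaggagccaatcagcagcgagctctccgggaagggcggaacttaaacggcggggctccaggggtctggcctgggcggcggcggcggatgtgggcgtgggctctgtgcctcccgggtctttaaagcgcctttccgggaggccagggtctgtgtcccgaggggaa
Dnmt1, start 3 of 3, chr9:20952574-20952873, minus strand: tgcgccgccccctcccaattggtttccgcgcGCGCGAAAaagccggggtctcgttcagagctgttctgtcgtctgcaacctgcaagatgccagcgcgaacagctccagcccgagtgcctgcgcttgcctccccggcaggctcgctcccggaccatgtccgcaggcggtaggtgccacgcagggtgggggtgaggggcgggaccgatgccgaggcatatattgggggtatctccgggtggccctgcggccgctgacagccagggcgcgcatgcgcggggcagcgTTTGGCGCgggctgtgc
Tet2, chr3:133544341-133544640, minus strand: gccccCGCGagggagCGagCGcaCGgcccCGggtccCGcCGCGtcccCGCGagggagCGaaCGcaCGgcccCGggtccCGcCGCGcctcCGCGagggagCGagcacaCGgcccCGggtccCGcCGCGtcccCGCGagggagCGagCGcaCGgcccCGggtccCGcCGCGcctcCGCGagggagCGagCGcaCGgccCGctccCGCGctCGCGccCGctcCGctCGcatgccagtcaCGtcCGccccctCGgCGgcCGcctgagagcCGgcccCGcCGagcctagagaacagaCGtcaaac
Dnmt3l, start 1 of 3, chr10:78042037-78042336, plus strand: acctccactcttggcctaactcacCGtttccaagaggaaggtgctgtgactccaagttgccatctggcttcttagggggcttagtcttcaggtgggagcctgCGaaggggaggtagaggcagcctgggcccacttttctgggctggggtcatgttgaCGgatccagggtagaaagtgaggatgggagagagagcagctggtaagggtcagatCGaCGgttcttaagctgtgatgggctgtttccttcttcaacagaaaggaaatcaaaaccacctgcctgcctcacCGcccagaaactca

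These Uhrf1 and Dnmt1 windows were the members' only windows with the E2F letters, 2 of 17, against 2.26% of all 32851 windows. Of the windows of the 10 first starts 0 held them. The Uhrf1 match lies 185 bases before the start. The Dnmt1 window holds a match on the opposite strand 219 bases before the start and another 33 bases after it. Both windows hold 33 CG. Tet2 has 57 CG in its window, more than 99.8% of all windows, whose median is 7, and the window of the first Dnmt3l start has 6. The other Dnmt3l starts have 4 and 3, so that all starts of this gene lie under the median. The other starts of Dnmt1 have 2 and 12 CG, the former the fewest of the 17 windows, and the other start of Uhrf1 has 12. Of the remaining members, Dnmt3a has 46, 47 and 18 CG at its starts, Dnmt3b 30, Uhrf2 28, Tdg 26, Tet3 22 and Tet1 17. The GC box letters GGGCGG were in 13 of the 17 windows on either strand, against 35.7% of all windows, and the letters CCAAT in 6, against 37.4%. NRF1 letters (GCATGCGC) were in 2 windows, both of Dnmt1, against 2.71%, and CRE letters (TGACGTCA) in 1, that of Tdg, against 1.79%. The MYB letters AACTGNC and ETS letters CCGGAAG were in 0, against 12.8% and 8.86%. Windows of the same gene are not independent, and the windows of all genes were not matched for CG, which most of these letters contain. Each match is a run of letters and not a measured site. Counts cover whole genes and do not show which start was used.

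Transcripts of the de novo methyltransferases, of all TET enzymes and of Tdg were higher in the dsfb testes, and those of Uhrf1 were lower. By edgeR, with p-values adjusted over all tested genes and a threshold of 0.05, 6 members rose (Dnmt3a, Dnmt3b, Tet1, Tet2, Tet3 and Tdg), 1 fell (Uhrf1) and 3 did not pass (Dnmt1, Dnmt3l and Uhrf2). Changes were common in these libraries: 30.7% of all tested genes rose and 36.2% fell, so that 66.9% passed in either direction, against 7 of the 10 members. The members' median log2 fold change was 0.52, against 0.02 over all tested genes. For 7 members all dsfb libraries lay above all control libraries, as they did for 36.2% of all tested genes, and for 1 member all lay below, as for 38.5% of them. For Dnmt1 and Dnmt3l the groups overlapped.

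Depth and the levels of cell type markers differed between the groups. The control libraries held 23983373, 27707291 and 25684743 counted reads in replicates 1, 2 and 3, and the dsfb libraries 17306363, 15335130 and 15957354. All 10 Sertoli cell markers rose, with summed levels of 2255 to 3128 CPM (read counts over TMM-scaled library sizes) in control and 5529 to 5800 CPM in dsfb. The 10 pachytene spermatocyte markers (mid to late stages) all fell, from 7861 to 10770 CPM in control to 386 to 401 CPM in dsfb. All 8 tested spermatid markers fell as well, from 149 to 662 CPM to 9.70 to 11.6 CPM. Of 12 spermatogonial markers 8 rose and 2 fell. Their sum was nevertheless lower in dsfb (473 to 519 CPM) than in control (793 to 980 CPM). Dmrtb1, which fell from 554 to 45.3 CPM on average, made up most of the control sum. Of 9 early meiotic markers 4 rose and 2 fell, with sums of 1130 to 2064 CPM in control and 1220 to 1367 CPM in dsfb. Among other somatic cells, 3 of 6 Leydig, 2 of 4 peritubular myoid, 2 of 4 macrophage and 1 of 4 endothelial markers rose and 0 fell. No marker was at 0 in all libraries of a group. In bulk RNA, fewer cells of a type and less RNA per cell cannot be told apart, and the part of these markers' shifts in the members' values was not tested.

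Control replicate 3 stood apart from the other controls. Its summed spermatid markers were 2.05 log2 units above the mean of replicates 1 and 2, while its early meiotic markers (log2 ratio -0.84) and Sertoli markers (-0.41) were below. It was the lowest control for 8 members and the highest for Uhrf1 and Dnmt3l, as the plot of every library's CPM shows.

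**Figure D1:**
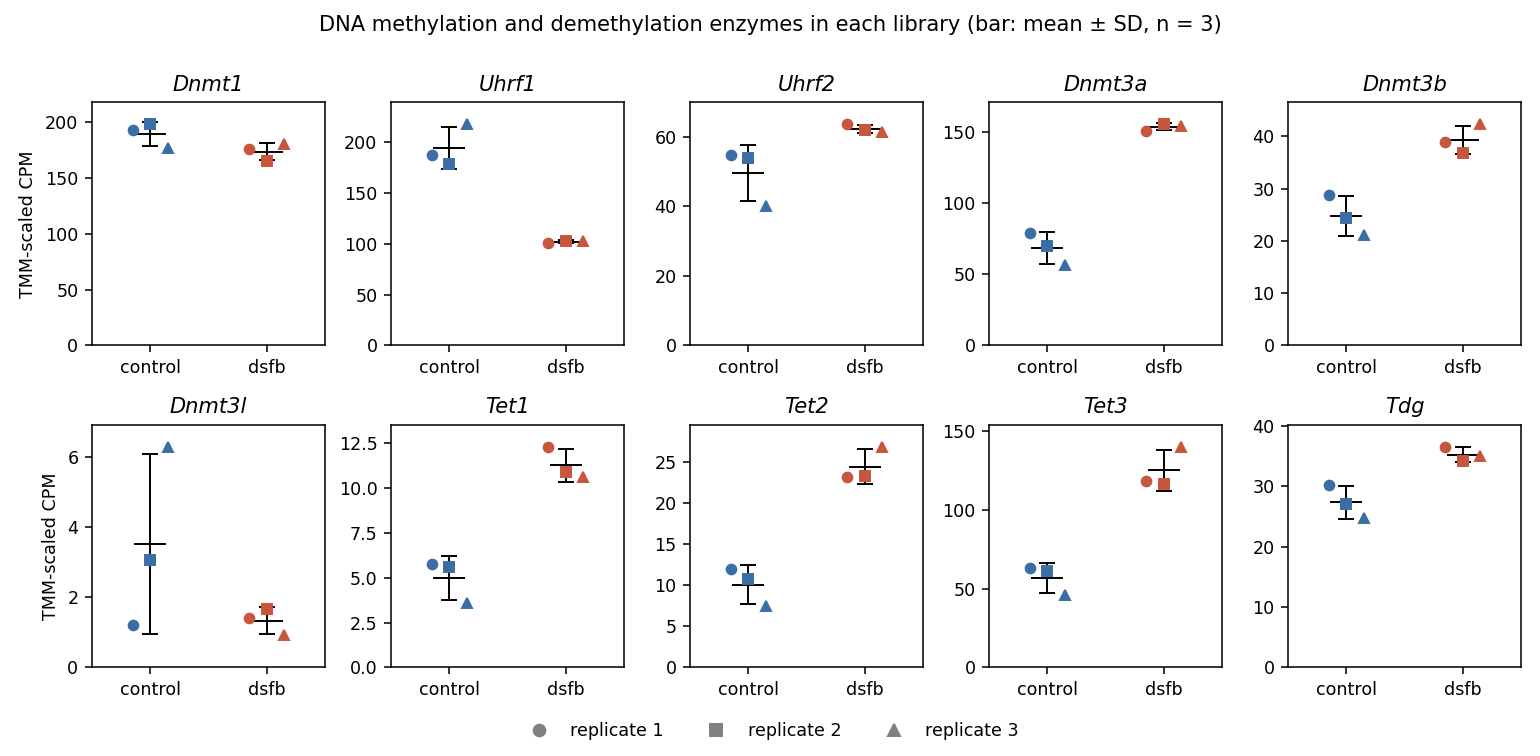
TMM-scaled CPM (vertical axes, each from 0) of each of the 10 members in the 3 control and 3 dsfb libraries; points are libraries, with shapes for replicate numbers, and bars are group means ± SD (n = 3). The dsfb points lie above the control points for 7 members and below them for Uhrf1, and the groups overlap for Dnmt1 and Dnmt3l.

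Among the maintenance genes Uhrf1 fell while its partner Dnmt1 did not pass the test. Uhrf1 (ENSMUSG00000001228, mm10 chr17:56303321-56323486, plus strand) was at 187, 179 and 218 CPM in controls 1, 2 and 3, and dsfb replicates 1, 2 and 3 held 100.4, 103 and 102 CPM. Values of other members are given in the same order of libraries. The dsfb libraries were nearly equal and all lay under the lowest control. The means were 195 ± 20.5 and 102 ± 1.49 CPM (SD, n = 3), a 1.91-fold difference (log2 -0.93, SE 0.10, edgeR adjusted p = 0.000106).

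Dnmt1 (ENSMUSG00000004099, chr9:20907209-20959888, minus strand) was at 193, 198 and 177 CPM in control and at 176, 165 and 180 CPM in dsfb. The groups overlap, with control replicate 3 under dsfb replicate 3. The log2 fold change was -0.13 (SE 0.08, edgeR adjusted p = 0.213). Its direction depended on how libraries were scaled: by library size alone Dnmt1 was higher in dsfb (log2 0.27, edgeR adjusted p = 0.0339), and without control replicate 3 it passed as lower (log2 -0.20, edgeR adjusted p = 0.0278).

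Uhrf2 (ENSMUSG00000024817, chr19:30030513-30093722, plus strand) was at 54.6, 53.8 and 40.2 CPM in control and at 63.5, 62.0 and 61.2 CPM in dsfb. All dsfb libraries were above all controls, but the distance to control replicates 1 and 2 was small beside the gap between those and replicate 3. Its log2 fold change was 0.33 (SE 0.13), which missed the threshold (edgeR adjusted p = 0.0537), and without control replicate 3 it was 0.17 (edgeR adjusted p = 0.0878).

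Ratios of members within a library do not depend on the scaling of libraries and were used to ask whether members moved unequally. They were taken on counts per kb of exon for 9 pairs and tested by exact two-sided permutation of the library labels, for which 3 against 3 gives a smallest p of 0.1. The log2 ratio of Uhrf1 to Dnmt1 was 0.75, 0.64 and 1.09 in the control libraries and -0.02, 0.12 and -0.02 in the dsfb libraries. Uhrf1 thus exceeded Dnmt1 in each control and was close to it in dsfb, with no overlap (difference -0.80, exact p = 0.1, 0.15 adjusted over the 9 ratios). The ratio of Uhrf2 to Uhrf1 was higher in each dsfb library than in each control (difference 1.27, exact p = 0.1).

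In the de novo group Dnmt3a and Dnmt3b rose, Dnmt3a more, while the cofactor gene Dnmt3l had a lower mean and a wide spread. Dnmt3a (ENSMUSG00000020661, chr12:3806007-3914443, plus strand) was at 79.4, 70.0 and 56.4 CPM in control and at 151, 156 and 155 CPM in dsfb. The lowest dsfb library was well above the highest control. The means of 68.6 ± 11.6 and 154 ± 2.47 CPM (SD, n = 3) differ 2.24-fold (log2 1.16, SE 0.13, edgeR adjusted p = 0.000146).

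Dnmt3b (ENSMUSG00000027478, chr2:153649450-153687730, plus strand) was at 28.7, 24.4 and 21.1 CPM in control and at 38.9, 36.8 and 42.3 CPM in dsfb. Each dsfb library again exceeded each control. The means were 24.7 ± 3.80 and 39.3 ± 2.75 CPM (log2 0.67, SE 0.14, edgeR adjusted p = 0.00402).

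The log2 ratio of Dnmt3b to Dnmt3a was 0.24, 0.18 and 0.29 in control and -0.25, -0.37 and -0.17 in dsfb. Per kb of merged exons Dnmt3b was thus the higher of the pair in every control library and Dnmt3a in every dsfb library (difference -0.50, exact p = 0.1). Which gene is higher in control depends on the length used: per kb of the longest transcript the mean of Dnmt3a was above that of Dnmt3b in both groups.

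Dnmt3l (ENSMUSG00000000730, chr10:78041947-78063622, plus strand) was at 1.21, 3.06 and 6.30 CPM in control, from 26, 74 and 136 reads, and at 1.42, 1.66 and 0.918 CPM in dsfb, from 28, 29 and 17 reads. Control replicate 1 lay within the dsfb range and control replicate 3 far above it. Its log2 fold change was -1.40 (SE 0.57), which missed the threshold (edgeR adjusted p = 0.0609). Without control replicate 3 it was -0.72 (edgeR adjusted p = 0.102), and without control replicate 1 it was -1.85 and passed (edgeR adjusted p = 0.00855). Among the 3 controls the order of Dnmt3l was the reverse of that of Dnmt3a, and the log2 ratio of Dnmt3l to Dnmt3a was -3.56, -2.04 and -0.68 in control and -4.25, -4.07 and -4.92 in dsfb. The ratio did not overlap between groups (difference -2.32, exact p = 0.1), but the control spread was large (SD 1.44).

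**Figure D2:**
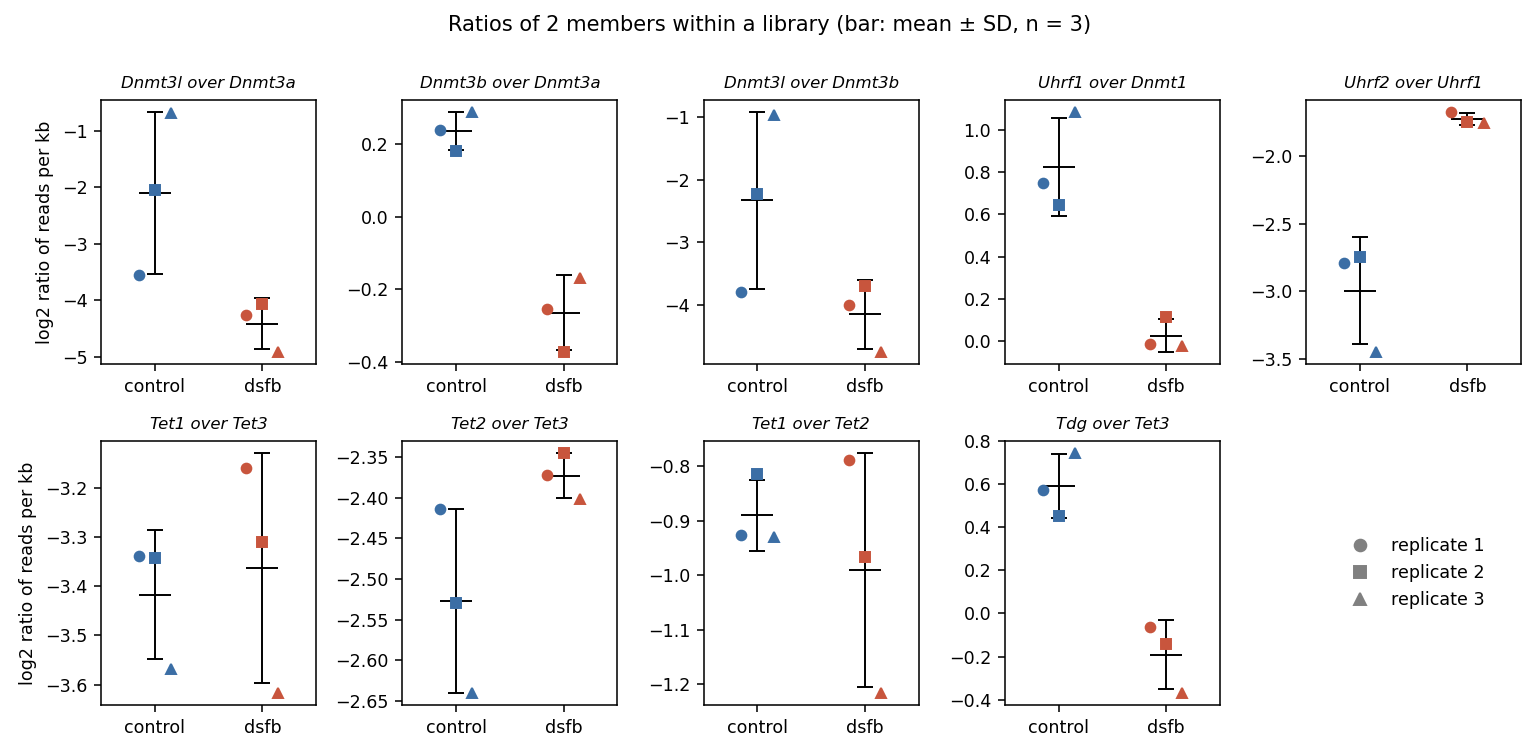
Log2 ratios of 9 pairs of members within each library, on counts per kb of exon (vertical axis), for control and dsfb; points are libraries, with shapes for replicate numbers, and bars are group means ± SD (n = 3). The groups do not overlap for 6 of the 9 pairs, and the Dnmt3l ratios spread widely among the controls. Many pairs share a gene with another pair, and the share without overlap among pairs of other genes was not counted.

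All 3 TET genes rose, by 2.20-fold to 2.43-fold. Tet1 (ENSMUSG00000047146, chr10:62804570-62908996, minus strand) was at 5.77, 5.62 and 3.57 CPM in control and at 12.3, 10.9 and 10.6 CPM in dsfb. The groups were far apart, with a 2.26-fold difference of means (log2 1.17, SE 0.24, edgeR adjusted p = 0.00311).

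Tet2 (ENSMUSG00000040943, chr3:133463679-133545139, minus strand) was at 11.96, 10.8 and 7.42 CPM in control and at 23.2, 23.2 and 26.8 CPM in dsfb. No dsfb library came near the control range, and the means differ 2.43-fold (log2 1.28, SE 0.20, edgeR adjusted p = 0.00103).

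Tet3 (ENSMUSG00000034832, chr6:83362373-83459084, minus strand) was at 63.1, 61.6 and 45.8 CPM in control and at 119, 117 and 140 CPM in dsfb. It was the TET gene with the most reads in every library. The means differ 2.20-fold (log2 1.14, SE 0.14, edgeR adjusted p = 0.00031).

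The make-up of the TET group was similar in both genotypes. Of the summed TET level per kb, Tet3 supplied 78.9 ± 1.33% in control and 77.5 ± 1.09% in dsfb, Tet2 13.7 ± 0.853% and 14.96 ± 0.189%, and Tet1 7.40 ± 0.547% and 7.59 ± 1.09% (SD, n = 3). The log2 ratio of Tet1 to Tet3 differed by 0.05 between the groups, less than its spread among either (SD 0.13 and 0.23, exact p = 0.8), and that of Tet1 to Tet2 by -0.10 (exact p = 0.5). The ratio of Tet2 to Tet3 was 0.16 log2 units higher in dsfb, with no overlap between libraries (exact p = 0.1).

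Tdg (ENSMUSG00000034674, chr10:82629828-82650799, plus strand) rose the least of the genes that passed. It was at 30.2, 27.1 and 24.7 CPM in control and at 36.6, 34.1 and 34.9 CPM in dsfb. The groups do not overlap, and the means of 27.3 ± 2.76 and 35.2 ± 1.24 CPM differ 1.29-fold (log2 0.37, SE 0.12, edgeR adjusted p = 0.0256). The call was lost without control replicate 2 (edgeR adjusted p = 0.0788) and without dsfb replicate 1, 2 or 3 (edgeR adjusted p = 0.0964, 0.0636 and 0.0649). Tdg moved less than Tet3, the enzyme upstream of it: their log2 ratio was 0.57, 0.45 and 0.75 in control and -0.06, -0.14 and -0.37 in dsfb (difference -0.78, exact p = 0.1).

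Some members share exonic bases with a gene on the opposite strand, and whether reads were counted by strand is not stated. Tdg shares 367 bases (6.83% of its exons) with Glt8d2, Dnmt3l 67 bases (2.24%) with Aire, Dnmt3a 133 bases with Dnmt3aos and Tet2 43 bases with Gm42567. Glt8d2 held 145, 168 and 188 reads in the control libraries and 87, 82 and 98 in dsfb, and its part in the Tdg counts was not tested. Aire held 4 to 25 reads in the control libraries and 20 to 29 in dsfb, a number close to that of Dnmt3l in dsfb. The pseudogenes Tdg-ps, Dnmt3a-ps1 and Dnmt3l-ps1 held at most 2 reads in any library. Pseudogenes of the members under other names were not sought.

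**Figure D3:**
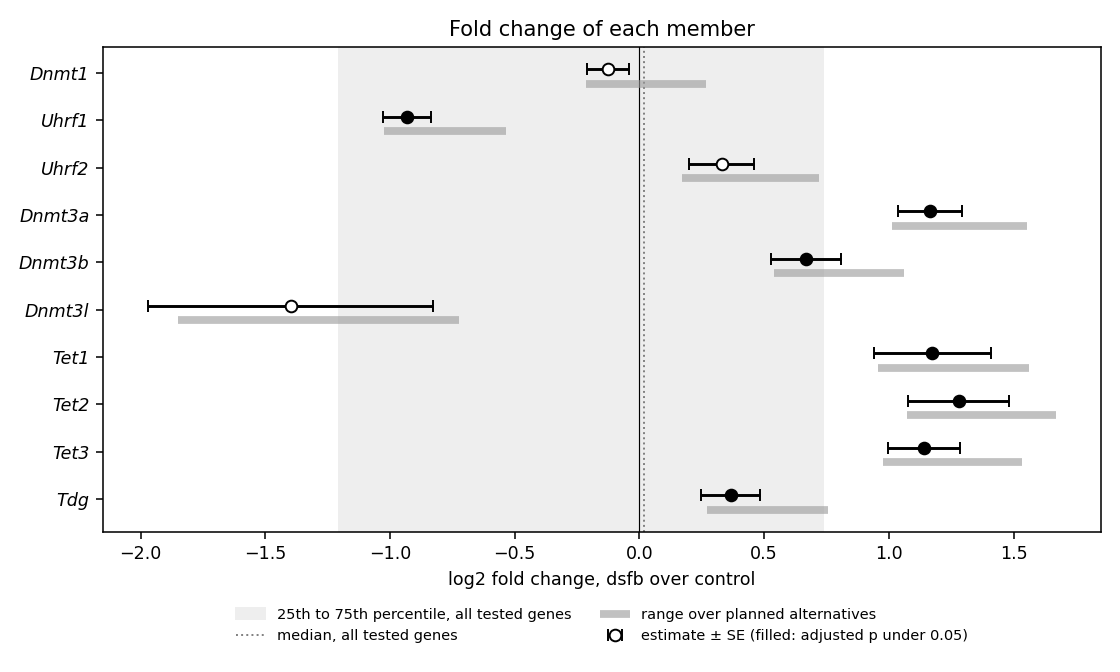
Log2 fold change of dsfb over control (horizontal axis) for each member, as edgeR gives it, with bars of 1 SE, filled where it passed the test; thick grey bars span the 17 alternatives, and the shaded band runs from the lower to the upper quartile of all tested genes and the dotted line is their median. Dnmt3a, Tet1, Tet2 and Tet3 lie between 1.14 and 1.28, Uhrf1 lies at -0.93, and Dnmt3l has the widest bar (SE 0.57).

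Levels of different genes were compared as CPM per kb of merged exons. Uhrf1 and Dnmt1 were the most abundant members in both groups, at 45.7 ± 4.81 and 25.7 ± 1.46 CPM per kb in control and at 24.0 ± 0.350 and 23.6 ± 1.06 CPM per kb in dsfb (SD, n = 3). In dsfb these ranges overlap, so their order there was not resolved. In control followed Uhrf2 (5.77), Tdg (5.09), Dnmt3b (4.85), Dnmt3a (4.12) and Tet3 (3.40 CPM per kb), each overlapping its neighbour, then Dnmt3l (1.18) and Tet2 (0.596), which also overlap, and Tet1 (0.323). In dsfb Dnmt3a (9.24 CPM per kb) stood apart in the next place, followed by Dnmt3b (7.70), Tet3 (7.501) and Uhrf2 (7.25), which overlap in that order, then Tdg (6.55), Tet2 (1.45), Tet1 (0.728) and Dnmt3l (0.447), none of which overlaps its neighbours. By group means Dnmt3a was at place 6 in control and place 3 in dsfb, and Dnmt3l at place 8 and the last place. Their control places were not resolved from those of their neighbours. Per kb of the longest transcript instead, Dnmt1 stood above Uhrf1 in dsfb, Dnmt3a went from place 5 to place 4 and Dnmt3b from place 6 to place 7.

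As sums, Dnmt1, Uhrf1 and Uhrf2 were at 77.1 ± 2.45 CPM per kb in control and 54.8 ± 0.882 in dsfb. The DNMT3 genes were at 10.1 ± 0.593 and 17.4 ± 0.435, and the TET genes at 4.32 ± 0.792 and 9.68 ± 0.873. In the first sum Uhrf1 went from 45.7 to 24.0 CPM per kb, Dnmt1 from 25.7 to 23.6 and Uhrf2 from 5.77 to 7.25. Of that sum Uhrf1 supplied 59.1 ± 4.31% in control and 43.8 ± 1.11% in dsfb. Within the DNMT3 sum Dnmt3a went from 40.5 ± 4.71% to 53.2 ± 1.33%, and Dnmt3l from 11.95 ± 9.19% to 2.58 ± 0.786%.

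**Figure D4:**
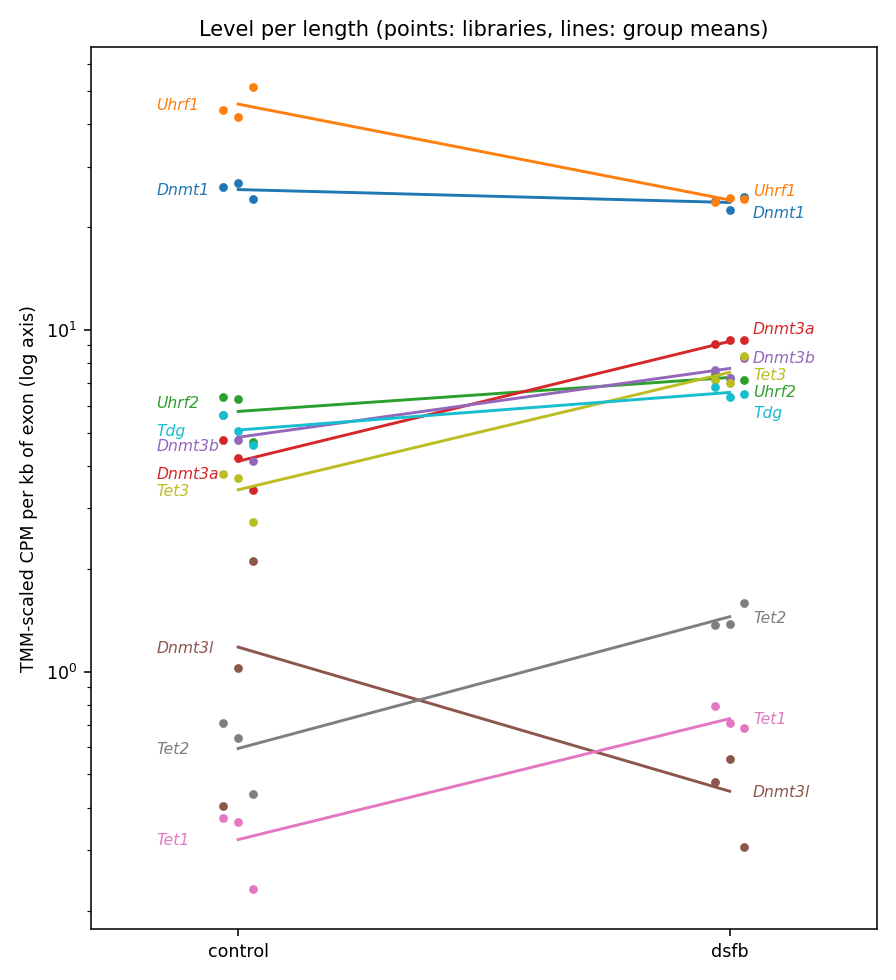
Level of each member in CPM per kb of exon (vertical log axis) in control and dsfb; points are libraries and lines join group means. Uhrf1 falls to the level of Dnmt1 in dsfb, Dnmt3a passes Dnmt3b (per longest transcript it is above in both groups), and the mean of Dnmt3l drops under Tet1 and Tet2.

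Dnmt3a and the TET genes rose by log2 values of 1.14 to 1.28, and the median over the Sertoli markers was 1.03. Set against the summed CPM of the 10 Sertoli markers in the same library, a reference chosen after the data had been seen, Dnmt3a was 0.13 and Tet2 0.26 log2 units higher in dsfb with no overlap between groups. Tet1 (0.16) and Tet3 (0.11) overlapped between the groups on this scale. The other 6 members were lower with no overlap: Dnmt3b by a log2 difference of -0.37, Tdg of -0.68, Uhrf2 of -0.70, Dnmt1 of -1.17, Uhrf1 of -1.97 and Dnmt3l of -2.19. Direction therefore turned between the scales for Dnmt3b, Tdg and Uhrf2. The Sertoli sum itself rose, so a gene that rose less than this sum is lower on this scale. The upper quartile of log2 fold changes over all tested genes was 0.74. The share of all tested genes that are lower on this scale was not counted. Clu made up most of the Sertoli sum, at 1812 CPM on average in control and 3599 CPM in dsfb. No test was run on the ratios to this sum, and the cells in which each member is transcribed were not measured.

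**Figure D5:**
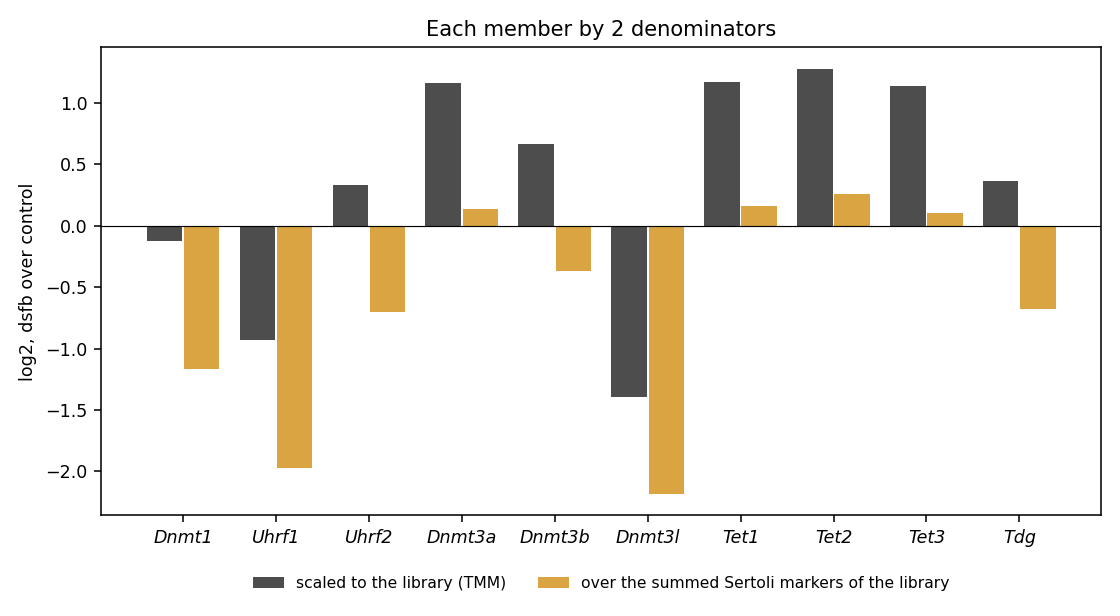
Log2 difference of dsfb minus control (vertical axis) for each member, scaled to the library by TMM and relative to the summed Sertoli markers of the same library. Relative to the Sertoli markers the largest rise is 0.26 (Tet2), and Dnmt3b, Tdg and Uhrf2 change sign.

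Genes whose profile over the 6 libraries was nearest to a member were sought among 14115 other tested genes that averaged at least 1 CPM and had a symbol that is no clone, predicted, pseudogene or microRNA name, by the root mean square difference of log2(CPM + 0.5) centred on each gene's mean. This was done for the 3 members with the largest absolute log2 fold change. For Dnmt3l the nearest were Platr21 (0.16 log2 units) and Dmtn (0.22), the only 2 genes within 0.25. For Tet2 they were Prrg3 (0.033) and Rassf8 (0.049), and for Tet1 Gys1 (0.033) and Sox4 (0.036), with 1766 and 2362 genes within 0.25.

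Other genes of DNA methylation moved in both directions, and their counts stand against the shares of all tested genes given above (30.7% higher, 36.2% lower). Among partners of the DNMT and UHRF proteins 5 of 16 tested genes rose and 5 fell (median log2 fold change -0.03). With library size only 3 were called lower, against 28.9% of all tested genes. Dnmt3c, a rodent duplicate of Dnmt3b that methylates young transposons in male germ cells, rose from 5.90 ± 0.991 to 11.5 ± 0.791 CPM (log2 0.96, SE 0.20, edgeR adjusted p = 0.00343); reads of it and of Dnmt3b could be divided between the copies. Lig1, the replicative DNA ligase, rose (log2 0.53), and Dmap1, a DNMT1-associated protein, fell (-0.75). Zfp57, a zinc finger protein that protects imprinted methylation, fell from 15.4 to 4.14 CPM (-1.89). Trdmt1, a DNMT family gene that methylates transfer RNA, was at 24.4 CPM in control and 24.1 CPM in dsfb (edgeR adjusted p = 0.935).

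Among TET partners and enzymes of their cofactor 7 of 13 genes rose and 3 fell (median 0.53). The falls depended on scaling and on single libraries: 0 of the 13 were called lower with upper-quartile scaling, with library size only and without dsfb replicate 1 or 2. Of all tested genes 30.9%, 28.9%, 32.4% and 32.7% were lower in these settings. Without control replicate 2 or dsfb replicate 3, 1 was called lower, against 34.4% and 33.1% of all tested genes. Ogt, the X-linked glycosyltransferase that binds TET proteins, rose from 155 to 326 CPM (log2 1.07), and Gadd45b, of a family linked to demethylation, rose from 9.87 to 19.6 CPM (0.99). Qser1, which protects DNA from de novo methylation, fell (-0.41). Its call was lost without control replicate 2 (edgeR adjusted p = 0.0748) or any 1 dsfb library (edgeR adjusted p = 0.0855, 0.0656 and 0.0788 for replicates 1, 2 and 3), and without control replicate 3 its log2 fold change was -0.57. With upper-quartile scaling it was -0.13 (edgeR adjusted p = 0.391), and with library size only -0.02 (edgeR adjusted p = 0.909).

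In base excision repair, which acts after TDG, 7 of 16 genes rose and 6 fell (median 0.33). The glycosylase genes Ung and Neil1 rose (log2 0.88 and 1.07). Polb, the repair polymerase, fell from 134 to 31.3 CPM (-2.10), and Lig3, the ligase of the same step, from 271 to 110 CPM (-1.31). Lig3 shares 25.1% of its exons with Rffl on the opposite strand.

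Of 8 genes from families that hold readers of methylated DNA, 4 rose and 1 fell (median 0.33). With upper-quartile scaling or library size only 7 were called higher, against 41.3% and 45.1% of all tested genes. Zbtb38, a zinc finger reader, rose from 25 to 61.3 CPM (log2 1.29). Mbd3, a subunit of the NuRD complex, fell from 148 to 87.0 CPM (-0.77).

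In the cycle that supplies S-adenosylmethionine, the methyl donor, 6 of 15 genes rose and 3 fell (median 0.22). Without control replicate 2, dsfb replicate 1 or dsfb replicate 3, 3 were called higher, against 25.7%, 23.2% and 24.3% of all tested genes. When low counts were not filtered 3 were likewise called higher, against 12.8%. With library size only 10 were called higher, against 45.1% of all tested genes. Mat2b, the regulatory subunit of its synthetase, and Ahcy, which clears the product S-adenosylhomocysteine, rose (log2 0.73 and 0.58). Ahcyl2 and Bhmt2 fell (-0.73 and -2.73), the latter from 1.11 to 0.163 CPM.

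Of 8 genes of piRNA-directed DNA methylation, the route by which small RNAs guide methylation to transposons in fetal male germ cells, 2 rose and 3 fell (median -0.34). Piwil4, the nuclear PIWI protein of this route, rose from 2.53 to 5.63 CPM (log2 1.15), and Tex15, its effector, from 291 to 444 CPM (0.61). The call for Tex15 was lost without dsfb replicate 1 or 2 (edgeR adjusted p = 0.0545 and 0.0646), and without control replicate 3 its log2 fold change was 0.40. Mael and Tdrd9, which act in piRNA production and transposon silencing, fell (-2.50 and -1.46). Piwil4 shares exonic bases with an antisense gene. The pachytene markers fell in the same libraries, and their part in the falls of Mael and Tdrd9 was not tested.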

How the data were processed

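Polyadenylated RNA from testes was isolated with TRIzol, and libraries were prepared with NEBNext Ultra reagents, per the labels' protocols. Raw counts of reads per gene were deposited for all 6 libraries. The aligner was STAR 2.6.0 and the build mm10, per the submitters' processing notes; how genes were counted, and whether by strand, is not stated there or in the labels.

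Symbols, positions and exons came from GENCODE M21, which held 55227 of the 55487 identifiers. Counts were filtered (filterByExpr by group), scaled by TMM and fitted with edgeR 4.0.16 in R 4.3.3 (glmQLFit, glmQLFTest), with the group as the only term, a prior count of 0.125 and Benjamini-Hochberg adjustment over all 19826 tested genes at a threshold of 0.05. The fit was first tested on simulated data. The SE is |log2 fold change| divided by the root of F, and CPM use TMM-scaled library sizes. Sequences came from RefSeq tables. DESeq2 1.42.0 and limma-voom (limma 3.58.1) were alternatives, beside other scalings and filters, a test against 1.5-fold, thinning to the smallest total, a replicate block and leaving out each library; the Sertoli reference was an addition made with the data already seen.

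The members and lists were chosen with earlier results of these data known. Named were all members, up to 2 rising and 2 falling genes of each list with the smallest p, Dnmt3c and Trdmt1, and 2 nearest genes for each of 3 members; some genes the rule takes are not reported here. Libraries of a group differed by more than sampling noise (chi-square per degree of freedom 4.09 to 74.1).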

Additional observations from a re-analysis of the deposited data

How the results depend on the processing

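Dnmt3a, Uhrf1, Tet1, Tet2 and Tet3 kept their direction and their call under all 17 alternatives, with log2 fold changes of 1.01 to 1.55, -1.02 to -0.53, 0.96 to 1.56, 1.07 to 1.67 and 0.98 to 1.53. Dnmt3b lost its call only against 1.5-fold (edgeR adjusted p = 0.206). Between 4 members (against 1.5-fold) and 8 (library size only) were called higher, against 15.2% and 45.1% of all tested genes. With RLE scaling, no filter or DESeq2, 2 members were called lower, against 38.2%, 23.3% and 30.8% of all tested genes. Leaving out each library gave 1 to 2 members called lower, against 32.4% to 38.4% of all tested genes. RLE scaling added Dnmt1 (edgeR adjusted p = 0.0443), and no filter and DESeq2 added Dnmt3l (edgeR adjusted p = 0.0409, DESeq2 adjusted p = 0.0297). Tdg also lost its call with RLE scaling, no filter, DESeq2 and against 1.5-fold (adjusted p = 0.0554, 0.150, 0.0832 and 0.968).

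Dnmt1 turned to 0.15 with upper-quartile scaling and 0.27 with library size only, and Trdmt1 to 0.26, 0.37, 0.026, 0.0057, 0.0018 and 0.0096 with upper-quartile scaling, library size only, autosomal TMM, voom, thinning and the replicate block (-0.23 to 0.14 without single libraries). Relative to the Sertoli markers Dnmt3b, Uhrf2 and Tdg were at -0.37, -0.70 and -0.68. These scalings moved the median of all genes by 0.278 (upper quartile) and 0.394 (library size), and 57.2% and 60.9% of calls were then higher, against 45.9%. Higher calls made up 35.5% with no filter and 35.2% against 1.5-fold. Uhrf2 passed as higher with upper-quartile, library-size and autosomal TMM scaling (edgeR adjusted p = 0.00438, 0.00255 and 0.0349). Against 1.5-fold, 15.2% of all tested genes were called higher and 27.9% lower. The genes called higher then fell to 2 reader-family genes, 4 base excision repair genes and 0 of the S-adenosylmethionine cycle. Also left as higher were 2 DNMT and UHRF partners and 1 piRNA gene. Those called lower fell to 0 reader-family genes, 3 DNMT and UHRF partners and 0 TET partners, since that test asks for larger changes. Other causes were not tested.

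Whether equal replicate numbers pair the libraries was not settled. Each library was nearest to its own number in the other group, but the correlations of deviations were small (0.068, 0.058 and 0.110). With the replicate block 7 members were higher, with Uhrf2 added (edgeR adjusted p = 0.0372), and 1 was lower. Of all tested genes 31.4% were then higher and 36.3% lower. Depth limits Dnmt3l most, which rests on 17 to 136 reads a library.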
